A study of Homo sapiens with 3 samples.

Results

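Expression of 53 genes of replication origin licensing and the replisome was compared between 2 RNA libraries of human A375 melanoma cells. The genes were chosen by symbol from a named list, and all 53 were found among the 20344 genes listed. The choice was made with earlier results of these data known, so comparisons with all genes are descriptive only. The A375-VR library has the title A375-VR, Prop, and the A375 library the title A375, Prop, and each is the 1 library of its group. A375 is an established melanoma line with mutant BRAF. The series title concerns propranolol, a blocker of beta-adrenergic receptors, and resistance to the BRAF inhibitor vemurafenib. The labels do not spell out VR and do not say how such cells were derived. Both titles carry the word Prop. The extraction protocol, however, gives only A375-VR cells, kept for 24 h with DMSO or with propranolol at 20 µM, which goes against both labels, title and cell line, that name A375 for the A375 library. Cell line, drug, culture and library preparation therefore cannot be told apart as sources of a difference. The remaining sample, with the title A375-VR, DMSO, is not analysed here. With no replicate library there is no test, and every fold and difference below describes these 2 libraries only.

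Before S phase, the origin recognition complex binds DNA and, with CDC6 and CDT1, loads the ring of MCM2 to MCM7 as an inactive double hexamer, a step called licensing. Kinases then recruit CDC45 and the GINS complex, and the active helicase unwinds DNA ahead of the polymerases. Primase starts each strand, the clamp PCNA holds the polymerases on the template, and chromatin assembly factors place histones behind the fork. Many of these genes are known to be transcribed most in late G1 and S phase under E2F factors, so that their RNA is commonly higher in dividing than in resting cells.

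Almost the whole set was lower in the A375-VR library. Expression is given as FPKM, fragments relative to the length of the gene and the depth of the library, which allows genes to be compared per length. FPKM was below that of the A375 library for 51 of the 53 genes, where 39.7% of all 10761 genes tested, those that reached an FPKM of 1 in either library, were below. The median difference of log2(FPKM + 1), A375-VR minus A375, was -0.70 over the 53 genes and 0.10 over all 10761. A difference of at least 1 in size on this scale is called 2-fold here. By that measure 7 genes were at least 2-fold lower, namely PRIM1, CLSPN, MCM5, GINS2, CDT1, MCM4 and PCNA, against 0.613% of all genes tested. None was at least 2-fold higher, against 3.14% of all genes. Of the remaining genes the nearest to the threshold were MCM2 at -0.98 and MCM7 at -0.95, while MCM4 and PCNA passed it narrowly, both at -1.001. A difference of -0.5 or lower was found for 33 of the 53, against 6.54% of all genes. ORC2 and ORC4 were the 2 genes with more FPKM in the A375-VR library. Differences were graded, with a plain ratio of FPKM of at most 0.5 for 8 genes (1.42% of all genes tested), above 0.5 and up to 0.7 for 29 (6.86%), and above 0.7 but below 1 for 14 (31.4%). In RNA from a whole culture, fewer cells in S phase and less of these RNAs in each cell cannot be told apart.

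Over all genes 338 were at least 2-fold higher and 66 lower, a share of 83.7% higher. When the libraries were centred by their median ratio this share was 73.2% (276 higher, 101 lower), and when scaled by a trimmed mean of log ratios it was 72.7% (274 higher, 103 lower). Under both of these scalings 11 of the 53 genes were at least 2-fold lower, the added ones being MCM2, MCM7, CDC45 and POLD1. After rescaling to a common sum 5 were, without MCM4 and PCNA. The library totals recovered from the values were 16438482 for the A375-VR library and 17811339 for the A375 library. The 53 genes rested on 166 to 5611 reads in the A375-VR library and on 274 to 11777 in the A375 library. A fold below is the plain ratio of FPKM, A375-VR over A375, and the interval in brackets is its 95% exact Clopper-Pearson interval on these reads, which covers counting error only. This interval lay below 1 for 51 of the 53 genes, as it did for 26.4% of all genes tested, and above 1 for the other 2, as it did for 43.6%.

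The lineage of the cells was checked with marker genes. Of 12 markers of melanocytes and melanoma 6 had an FPKM of at least 1, led by SOX10 with 150 FPKM in the A375-VR library and 65.3 in the A375 library, whereas the pigment genes PMEL, MLANA, TYR, DCT and TYRP1 were each below 1 in both and TYR was at 0. The summed FPKM of the 12 was 256 in the A375-VR library and 105 in the A375 library, so that this sum, to which SOX10 added most, was higher where most of the 53 genes were lower. A difference of 1 or more upward was found for 5 of these 6 expressed markers, against 3.14% of all genes tested. The other was MITF, a transcription factor of the melanocyte lineage, with 3.47 FPKM in the A375-VR library and 6.47 in the A375 library, a fold of 0.537 (0.476 to 0.605). The part of these markers in the result was not tested. None of 5 leukocyte markers reached an FPKM of 1 (summed FPKM 0.752 in the A375-VR library and 0.0595 in the A375 library), and PTPRC and CD3E were at 0 in both. None of 3 endothelial markers did (0.235 in the A375-VR library and 0.174 in the A375 library). Of the keratinocyte markers 2 of 4 passed (59.5 in the A375-VR library and 47.8 in the A375 library). These were KRT10, with 56.0 FPKM in the A375-VR library and 44.9 in the A375 library, and KRT14, with 3.47 and 2.73. KRT1 was at 0 in both libraries. Of the fibroblast markers 1 of 4 passed (5.37 in the A375-VR library and 3.42 in the A375 library).

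**Figure D1:**
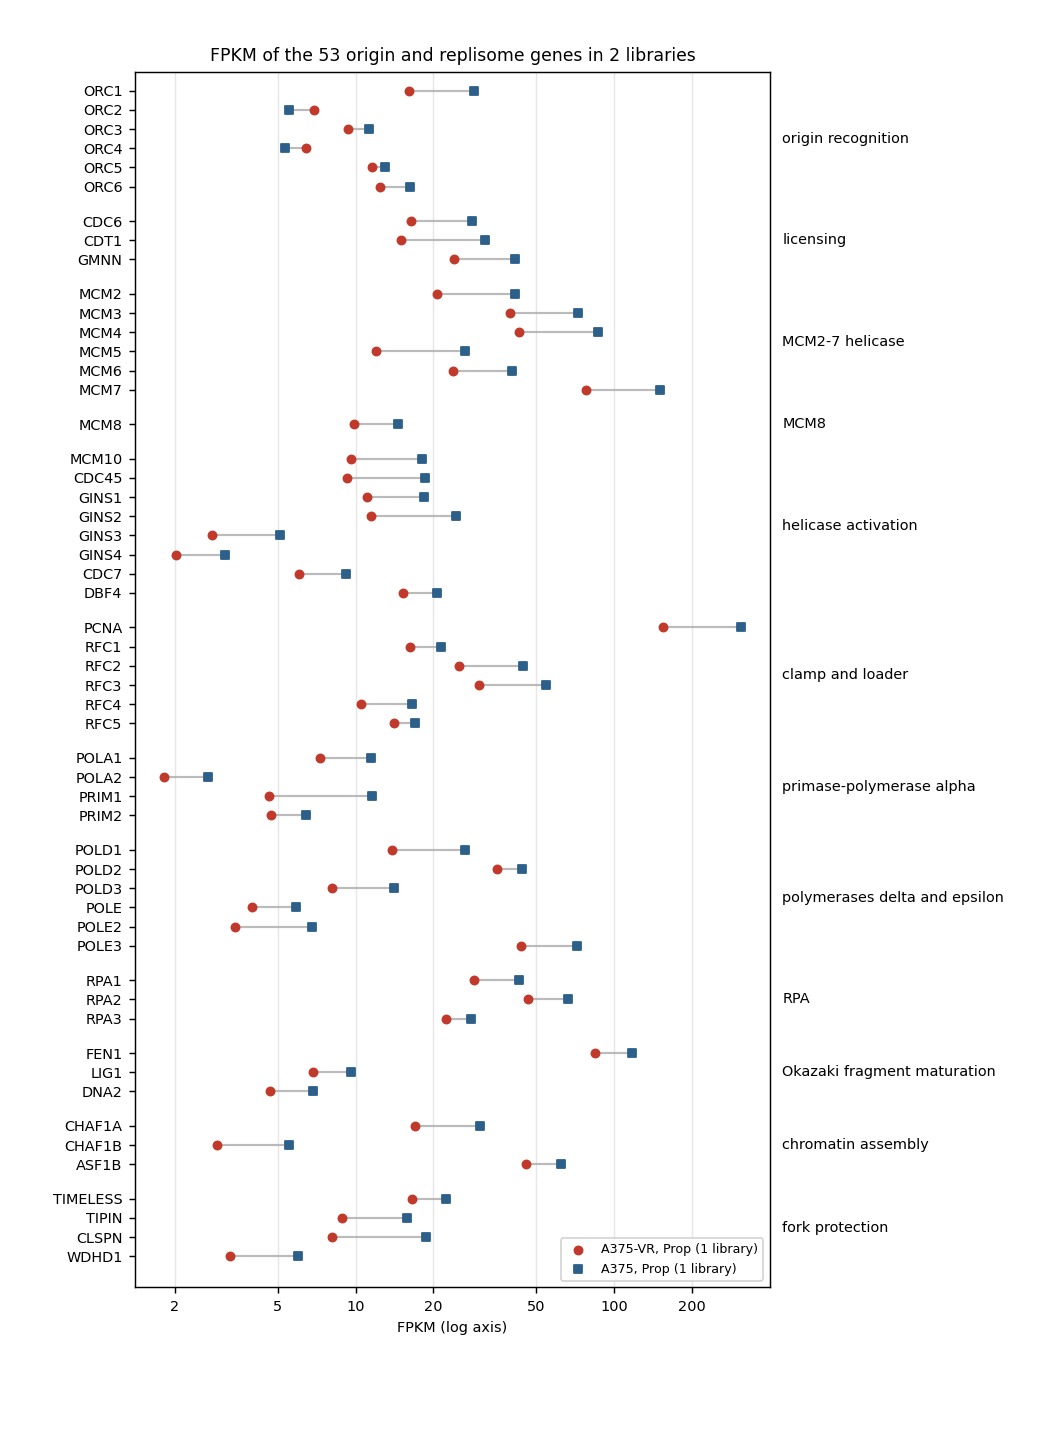
FPKM of each of the 53 genes on a log axis, with circles for the A375-VR library and squares for the A375 library, joined by a line and grouped by role. The circle lies left of the square for 51 genes and right of it for ORC2 and ORC4; PCNA has the highest level in both libraries, at 154 FPKM in the A375-VR library and 309 in the A375 library.

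The promoters of 46 of the 53 genes were matched in a RefSeq table (GRCh38.p14) of windows from 250 bases before to 50 after each start, with 59 windows in all. MCM4, MCM5, GINS4, POLD3, RPA2, RPA3 and DNA2 were not matched. The words TTTCCCGC, TTTCGCGC, TTTGCCGC and TTTGGCGC, spellings of the E2F consensus, were searched on both strands, with overlapping matches counted. At least 1 of them was found in 22 of the 59 windows (37.3%), against 3.31% of all 35116 windows in the table. Counted by gene, 22 of 46 (47.8%) held a word, against 5.43% of the genes in the expression files that were matched. The word CCAAT was in 52.5% of the 59 windows against 34.6% of all, and TTTGAA in 5.08% against 15.2%. By gene, CCAAT was in 58.7% of the 46 against 42.5% of the matched genes in the expression files. For TTTGAA these shares were 6.52% and 15.9%. A match is a string of letters and not a measured binding site.

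Example windows are printed for genes at both ends of the range of differences, chosen after their values were seen: the 5 matched genes that were at least 2-fold lower, MCM2 as the ring subunit nearest to them, and ORC2 with the largest difference upward. PCNA has 2 windows in the table, and the one with a word is shown. Capitals mark E2F words, and each sequence runs 5′ to 3′ on the strand of its gene, with its position in GRCh37 found by exact match. The windows lie at chr12:57146058-57146357 (minus strand), chr1:36235530-36235829 (minus), chr16:85722511-85722810 (minus), chr16:88869947-88870246 (plus), chr20:5107219-5107518 (minus), chr3:127317004-127317303 (plus) and chr2:201828334-201828633 (minus).
PRIM1: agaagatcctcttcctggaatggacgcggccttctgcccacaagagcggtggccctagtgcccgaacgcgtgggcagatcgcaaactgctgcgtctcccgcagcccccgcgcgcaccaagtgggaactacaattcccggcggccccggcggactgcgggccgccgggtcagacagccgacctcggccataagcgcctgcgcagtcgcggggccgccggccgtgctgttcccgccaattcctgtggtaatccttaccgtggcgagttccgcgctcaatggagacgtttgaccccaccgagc
CLSPN: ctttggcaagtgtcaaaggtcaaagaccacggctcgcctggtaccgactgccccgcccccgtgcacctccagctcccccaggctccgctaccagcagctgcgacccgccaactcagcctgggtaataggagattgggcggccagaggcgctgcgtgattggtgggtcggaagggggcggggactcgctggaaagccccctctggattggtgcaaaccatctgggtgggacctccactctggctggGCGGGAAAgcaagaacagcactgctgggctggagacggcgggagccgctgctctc
GINS2: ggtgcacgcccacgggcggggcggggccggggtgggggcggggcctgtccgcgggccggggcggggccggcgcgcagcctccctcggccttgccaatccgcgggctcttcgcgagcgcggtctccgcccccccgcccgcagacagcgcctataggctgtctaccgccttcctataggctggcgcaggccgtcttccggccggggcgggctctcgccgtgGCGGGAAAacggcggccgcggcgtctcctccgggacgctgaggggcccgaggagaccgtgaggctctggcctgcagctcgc
CDT1: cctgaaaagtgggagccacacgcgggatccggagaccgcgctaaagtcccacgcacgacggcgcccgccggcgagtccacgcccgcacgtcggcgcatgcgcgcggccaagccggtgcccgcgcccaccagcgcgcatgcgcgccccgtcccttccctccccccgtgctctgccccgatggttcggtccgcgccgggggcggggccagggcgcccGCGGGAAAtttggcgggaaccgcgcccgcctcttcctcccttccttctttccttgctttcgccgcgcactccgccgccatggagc
PCNA: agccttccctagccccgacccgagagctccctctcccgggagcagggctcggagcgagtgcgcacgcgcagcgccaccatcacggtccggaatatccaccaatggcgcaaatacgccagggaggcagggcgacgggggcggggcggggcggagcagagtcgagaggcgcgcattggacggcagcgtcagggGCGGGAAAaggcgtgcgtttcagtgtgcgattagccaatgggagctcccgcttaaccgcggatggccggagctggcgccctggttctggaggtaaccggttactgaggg
MCM2: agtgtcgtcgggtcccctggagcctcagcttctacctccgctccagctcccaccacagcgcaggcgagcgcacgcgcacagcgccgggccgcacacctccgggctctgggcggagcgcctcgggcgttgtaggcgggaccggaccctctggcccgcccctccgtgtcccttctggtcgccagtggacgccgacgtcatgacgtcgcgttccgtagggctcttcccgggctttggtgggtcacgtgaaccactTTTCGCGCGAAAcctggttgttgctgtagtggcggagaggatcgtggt
ORC2: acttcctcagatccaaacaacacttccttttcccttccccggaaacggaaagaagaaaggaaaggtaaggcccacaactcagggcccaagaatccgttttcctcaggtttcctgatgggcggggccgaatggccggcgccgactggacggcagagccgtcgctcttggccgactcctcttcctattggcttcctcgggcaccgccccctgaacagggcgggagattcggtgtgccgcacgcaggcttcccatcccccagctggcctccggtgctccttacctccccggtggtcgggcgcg
CLSPN, GINS2, CDT1 and PCNA share the word TTTCCCGC on the opposite strand, at -5 to 3, -31 to -24, -35 to -28 and -59 to -52 from the start. In MCM2 a pair of TTTCGCGC words on opposite strands overlap in 1 palindrome, at 3 to 10 and 7 to 14. None of the 4 words is in the windows of PRIM1 and ORC2, the genes with the lowest and the highest difference of the 53. Other spellings of the consensus were not searched.

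**Figure D2:**
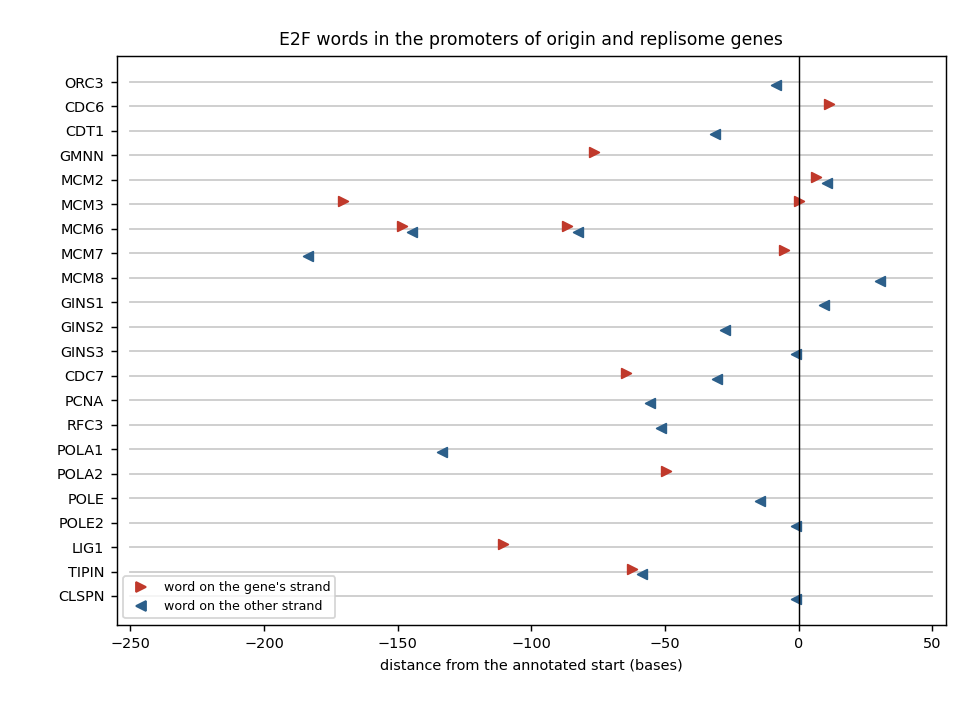
Positions of E2F words in the promoters of the 22 genes that hold one, as distance in bases from the annotated start, with right-pointing markers for the strand of the gene and left-pointing markers for the other strand. The 30 matches begin between -187 and 27, and 15 of them begin within 50 bases of the start.

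The 22 genes with a word had a median difference of -0.75 (from -1.12 to -0.24), and the 24 matched genes without one a median of -0.52 (from -1.16 to 0.28). Both ranges overlap over most of their length. All matched genes of licensing (3 of 3) and of the MCM2 to MCM7 ring (4 of 4) held a word, as did MCM8. Of the origin recognition genes 1 of 6 did, which was ORC3, and of the chromatin assembly genes 0 of 3.

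By its median, origin recognition was the role group that differed least of the 12, and its subunits were spread. The median difference of ORC1 to ORC6 was -0.20, with 4 lower and 2 higher. ORC1, the subunit whose amount is known to change through the human cell cycle, had 16.0 FPKM in the A375-VR library and 28.7 in the A375 library, a fold of 0.559 (0.513 to 0.608). Of the 6 genes 1, ORC1, had a difference of -0.5 or lower. ORC6, needed with the others for loading the helicase, had 12.5 FPKM in the A375-VR library against 16.3 in the A375 library (fold 0.767). ORC3 had 9.33 FPKM in the A375-VR library and 11.2 in the A375 library (fold 0.831), and ORC5, an ATP-binding subunit, 11.6 in the A375-VR library against 12.98 in the A375 library (fold 0.891). On the other side of 1, ORC2 had 6.93 FPKM in the A375-VR library and 5.51 in the A375 library, a fold of 1.26 (1.12 to 1.41). ORC4 had 6.42 FPKM in the A375-VR library against 5.35 in the A375 library, a fold of 1.201 (1.09 to 1.32). The median fold of all genes, 1.08, lay just below both intervals. The order of the subunits by FPKM was the same in both libraries, from ORC1 down through ORC6, ORC5, ORC3 and ORC2 to ORC4, but the distance from ORC1 to the rest was smaller in the A375-VR library. Some ORC4 exons overlap ACVR2A and MBD5 on the opposite strand.

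The licensing factors were all lower. CDT1, which brings the MCM ring to the origin, had 15.0 FPKM in the A375-VR library and 31.6 in the A375 library, a fold of 0.475 (0.438 to 0.516), and spans bases 88870197 to 88875666 of chromosome 16 (GRCh37). CDC6, the ATPase that works with it, had 16.4 FPKM in the A375-VR library against 28.2 in the A375 library, a fold of 0.5804 (0.545 to 0.618). GMNN encodes geminin, the inhibitor that holds CDT1 back after S phase begins, and had 24.0 FPKM in the A375-VR library and 41.3 in the A375 library, a fold of 0.582 (0.521 to 0.651). The inhibitor and its target were thus lower together, and CDT1 was below CDC6 in the A375-VR library and above it in the A375 library.

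The 6 genes of the helicase ring had the lowest median of any role group, at -0.96, and all 6 had a difference of -0.5 or lower. Their summed FPKM was 217 in the A375-VR library and 419 in the A375 library, a ratio of 0.518. MCM5 was lowest, with 12.03 FPKM in the A375-VR library and 26.5 in the A375 library, a fold of 0.453 (0.426 to 0.482), and spans bases 35796127 to 35821424 of chromosome 22 (GRCh37). MCM4, a subunit of the catalytic core with MCM6 and MCM7, had 42.9 FPKM in the A375-VR library against 87.0 in the A375 library, a fold of 0.494 (0.477 to 0.511). MCM2, which also binds histones, had 20.6 FPKM in the A375-VR library and 41.5 in the A375 library, a fold of 0.496 (0.468 to 0.526). It missed the 2-fold threshold because of the pseudocount. MCM7 was the most abundant of the ring, with 77.8 FPKM in the A375-VR library against 151 in the A375 library, a fold of 0.516 (0.49998 to 0.533). Of its exon bases in GENCODE 7.90% overlap AP4M1 on the opposite strand. MCM3 had 39.7 FPKM in the A375-VR library and 72.8 in the A375 library (fold 0.546). MCM6 differed least of the ring, with 23.8 FPKM in the A375-VR library against 40.2 in the A375 library, a fold of 0.592 (0.556 to 0.629), and its interval did not overlap those of MCM2, MCM4, MCM5 and MCM7. The subunits form the ring in equal numbers, while their RNA levels ranged from 12.03 to 77.8 FPKM in the A375-VR library and from 26.5 to 151 in the A375 library. MCM8, a relative outside the ring that acts mainly in recombination, had 9.88 FPKM in the A375-VR library against 14.6 in the A375 library, a fold of 0.679 (0.632 to 0.729), above the fold of each ring subunit.

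Genes that turn the loaded ring into an active helicase were lower in 8 of 8 cases, with a median of -0.69, and 6 had a difference of -0.5 or lower. GINS2 was furthest from 1, with 11.4 FPKM in the A375-VR library and 24.4 in the A375 library, a fold of 0.469 (0.409 to 0.537), and spans bases 85709804 to 85723679 of chromosome 16 (GRCh37). Its partners in the 4-subunit GINS complex had higher folds: GINS3 had 2.78 FPKM in the A375-VR library against 5.12 in the A375 library (fold 0.542), GINS1 11.1 in the A375-VR library against 18.4 in the A375 library (fold 0.602), and GINS4 2.02 in the A375-VR library against 3.12 in the A375 library (fold 0.649). The counting interval of GINS2 overlapped that of GINS3 and, barely, that of GINS4, but not that of GINS1. GINS4 rested on 182 reads in the A375-VR library and 304 in the A375 library. The recovered length was 1632 bases for GINS2 and 4068 for GINS1, against 3219 and 8017 exon bases in GENCODE. The intervals of GINS2 and GINS1 may therefore be too wide, and the overlap of GINS2 with GINS4 is uncertain. CDC45, the other helicase cofactor, had 9.30 FPKM in the A375-VR library and 18.6 in the A375 library, a fold of 0.5003 (0.446 to 0.561). MCM10, which helps the helicase to start, had 9.63 FPKM in the A375-VR library against 18.1 in the A375 library, a fold of 0.531 (0.489 to 0.576). The kinase pair that fires origins had the highest folds of the group. CDC7, the kinase, had 6.05 FPKM in the A375-VR library and 9.19 in the A375 library (fold 0.659), and DBF4, its activator, 15.3 in the A375-VR library against 20.7 in the A375 library (fold 0.739). DBF4 ranked above GINS2 in the A375-VR library and below it in the A375 library.

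The sliding clamp and its loader were lower in 6 of 6 genes, with a median of -0.70, and the clamp was far more abundant than the loader. PCNA had 154 FPKM in the A375-VR library and 309 in the A375 library, a fold of 0.498 (0.479 to 0.518), and spans bases 5095599 to 5107272 of chromosome 20 (GRCh37). Processed pseudogenes named after PCNA can take or share its reads. The loader is a complex of 5 subunits, of which RFC1 is the large one. RFC3 had 30.0 FPKM in the A375-VR library and 54.6 in the A375 library (fold 0.5495), RFC2 25.2 in the A375-VR library against 44.4 in the A375 library (fold 0.568), and RFC4 10.5 in the A375-VR library against 16.6 in the A375 library (fold 0.636). The large subunit RFC1 had 16.3 FPKM in the A375-VR library against 21.5 in the A375 library, a fold of 0.758 (0.713 to 0.805), and RFC5 14.0 in the A375-VR library against 17.0 in the A375 library, a fold of 0.823 (0.747 to 0.906). The intervals of RFC1 and RFC5 lay wholly above those of RFC2 and RFC3, so subunits of 1 complex were unequally lower, beyond counting error. Processed pseudogenes are also named after RFC3 and RFC5, and 5.72% of RFC5 exon bases overlap WSB2 on the opposite strand. Their part in these folds was not tested.

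**Figure D3:**
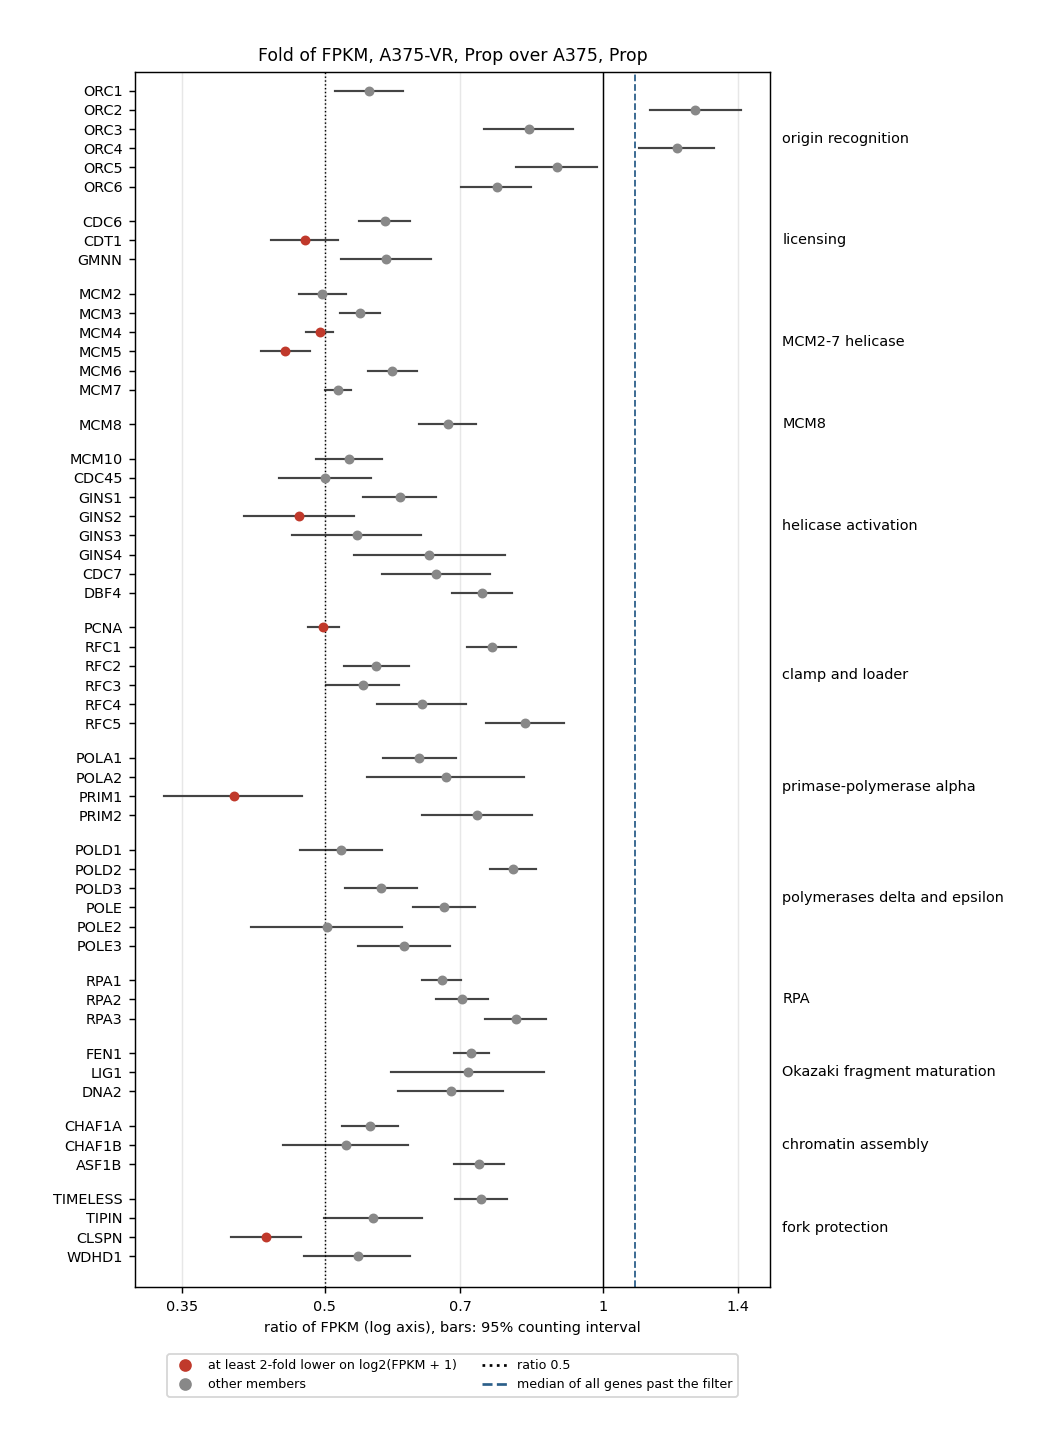
Ratio of FPKM, A375-VR library over A375 library, on a log axis for each of the 53 genes, with bars for the 95% counting interval and filled red points for the 7 genes at least 2-fold lower. The dashed line is the median fold of all genes, 1.08; 51 bars end below 1, and those of ORC2 and ORC4 begin above it.

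Primase and polymerase alpha, which lay down the RNA-DNA primers, held the largest single difference, and all 4 of their genes were lower, with a median of -0.49. PRIM1, the catalytic primase subunit, had 4.62 FPKM in the A375-VR library and 11.6 in the A375 library, a fold of 0.399 (0.335 to 0.473), from 185 reads in the A375-VR library and 503 in the A375 library. It spans bases 57124222 to 57146158 of chromosome 12 (GRCh37), with exon overlap with NACA on the same strand and HSD17B6 on the other. Its partner PRIM2 had 4.69 FPKM in the A375-VR library against 6.42 in the A375 library, a fold of 0.7305 (0.637 to 0.836), and its value is uncertain, since the unprocessed pseudogene PRIM2BP can share its reads. The primase subunits were thus at near equal FPKM in the A375-VR library, while PRIM1 was above PRIM2 in the A375 library. POLA1, the catalytic subunit of the polymerase, had 7.26 FPKM in the A375-VR library and 11.5 in the A375 library (fold 0.633). POLA2, its regulatory subunit, had the lowest level of the 53 genes, with 1.82 FPKM in the A375-VR library against 2.69 in the A375 library (fold 0.676).

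The polymerases that copy the lagging and leading strands, delta and epsilon, had a median of -0.72 with 6 of 6 lower. POLE2, a small subunit of polymerase epsilon, had 3.42 FPKM in the A375-VR library and 6.80 in the A375 library, a fold of 0.502 (0.415 to 0.606). Catalytic POLE had 3.97 FPKM in the A375-VR library against 5.90 in the A375 library, a fold of 0.673 (0.623 to 0.726), and POLE3, a histone-fold subunit, 43.7 in the A375-VR library against 71.8 in the A375 library, a fold of 0.609 (0.543 to 0.683). POLE3 is also known as a subunit of a chromatin remodelling complex. For polymerase delta, catalytic POLD1 had 13.8 FPKM in the A375-VR library and 26.5 in the A375 library, a fold of 0.521 (0.470 to 0.577). POLD3 had 8.08 FPKM in the A375-VR library against 14.1 in the A375 library (fold 0.575). POLD2 had 35.1 FPKM in the A375-VR library against 43.96 in the A375 library, a fold of 0.799 (0.755 to 0.845), and its interval lay above those of both other delta subunits. A processed pseudogene is named after POLD2, and its part in this fold was not tested.

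Single-strand binding and lagging-strand maturation genes were all lower. Their median folds, 0.704 and 0.713, were the highest of the role groups after origin recognition at 0.861. The RPA complex coats unwound DNA, and its genes had a median difference of -0.498, close to the -0.492 of primase and polymerase alpha. RPA1 had 28.8 FPKM in the A375-VR library and 43.0 in the A375 library (fold 0.669), RPA2 46.6 in the A375-VR library against 66.3 in the A375 library (fold 0.704), and RPA3 22.4 in the A375-VR library against 27.9 in the A375 library (fold 0.804). FEN1, the nuclease that trims Okazaki fragments, was the second most abundant of the 53 genes in the A375-VR library, with 84.6 FPKM there and 118 in the A375 library, a fold of 0.720 (0.689 to 0.752). LIG1, which seals the nicks, had 6.85 FPKM in the A375-VR library against 9.60 in the A375 library, a fold of 0.713 (0.589 to 0.862). DNA2, a nuclease and helicase for long flaps, had 4.66 FPKM in the A375-VR library and 6.82 in the A375 library, a fold of 0.684 (0.599 to 0.780). These 3 genes, with a median of -0.47, had nearly equal folds, and their intervals overlapped.

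Genes that rebuild chromatin behind the fork were lower in 3 of 3 cases, with a median of -0.74, and the CAF-1 subunits had lower folds than ASF1B. CHAF1A, the large subunit of CAF-1, had 16.9 FPKM in the A375-VR library and 30.2 in the A375 library, a fold of 0.5595 (0.521 to 0.600). CHAF1B, the middle subunit, had 2.91 FPKM in the A375-VR library against 5.53 in the A375 library, a fold of 0.527 (0.450 to 0.615). ASF1B, the histone chaperone that hands H3-H4 to CAF-1, had 45.7 FPKM in the A375-VR library against 62.2 in the A375 library, a fold of 0.734 (0.690 to 0.780), with its interval above both. Its paralog ASF1A, which is not one of the 53 genes and was named after its values were seen, had 26.9 FPKM in the A375-VR library and 20.1 in the A375 library, a fold of 1.34 (1.23 to 1.47).

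Fork protection genes were lower in 4 of 4 cases, with a median of -0.74. CLSPN encodes claspin, which links the fork to the checkpoint kinase CHK1. It had 8.07 FPKM in the A375-VR library and 18.7 in the A375 library, a fold of 0.431 (0.395 to 0.471), and spans bases 36185819 to 36235579 of chromosome 1 (GRCh37). TIMELESS and TIPIN form a complex that travels with claspin. TIPIN had 8.90 FPKM in the A375-VR library against 15.8 in the A375 library, a fold of 0.563 (0.498 to 0.636), while TIMELESS had 16.6 FPKM in the A375-VR library against 22.5 in the A375 library, a fold of 0.738 (0.692 to 0.787). Within this complex the counting intervals did not overlap. A processed pseudogene is named after TIPIN, and its part in the fold of TIPIN was not tested. WDHD1, which ties polymerase alpha to the helicase, had 3.26 FPKM in the A375-VR library and 6.01 in the A375 library (fold 0.543).

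Across the 53 genes the order of levels was largely shared by the libraries, with a Spearman correlation of 0.962 over genes, which are not independent and share the scaling of each library. The mean level and the difference had a Spearman correlation of -0.28 over the 53 genes and -0.26 over all 10761. The pseudocount shrinks the differences of genes with low FPKM, and 51 of the 53 genes were lower. Part of the correlation over the 53 genes is therefore built into the measure, and how much was not tested.

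A further list of 28 replication genes outside the 53 was lower by less. Of these 27 passed the filter, 23 had a difference below 0, 1 was at least 2-fold lower and the median was -0.35. RNASEH2A, at 0.417 FPKM in the A375-VR library and 0.724 in the A375 library, did not pass. The 5 largest differences were in PCLAF, NASP, DSCC1, CHTF18 and SSRP1. PCLAF, a PCNA-binding factor, had 17.6 FPKM in the A375-VR library and 40.8 in the A375 library, a fold of 0.431 (0.401 to 0.463). NASP, a histone chaperone, had a fold of 0.574, the clamp-loader genes DSCC1 and CHTF18 had folds of 0.627 and 0.608, and SSRP1, a subunit of the FACT chaperone, of 0.638. A list of 20 nucleotide synthesis genes had a median of -0.53 with 19 below 0, and one of 20 mitotic regulators a median of -0.58 with 19 below 0. At least 2-fold lower were 1 of the 20 nucleotide genes and 0 of the 20 mitotic regulators. The same held for 7 of the 53 origin and replisome genes and for 0.613% of all genes tested. The distance between these lists was not tested, and their ranges overlap.

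**Figure D4:**
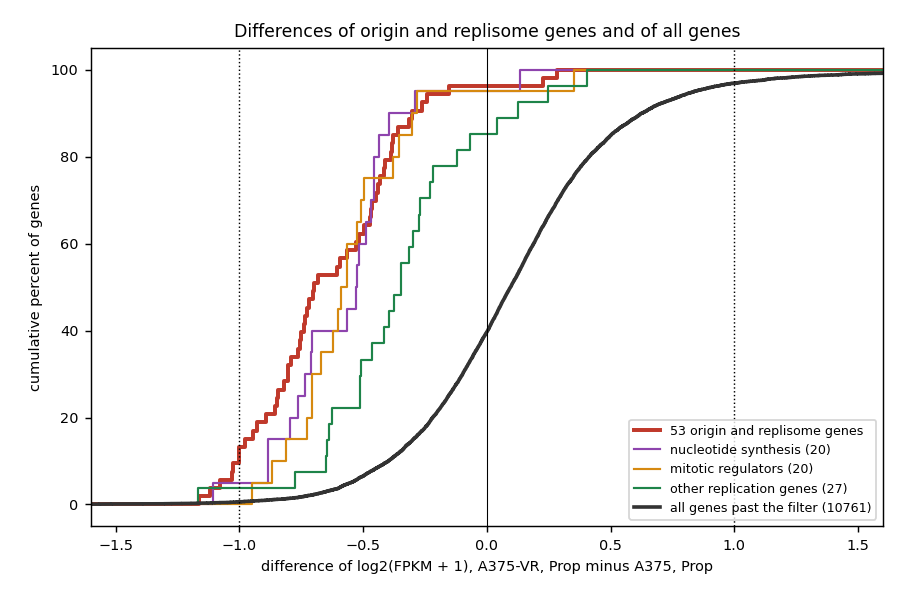
Cumulative percent of genes against the difference of log2(FPKM + 1), A375-VR library minus A375 library, for the 53 origin and replisome genes, 3 comparison lists and all 10761 genes past the filter. At 0 the curve of the 53 genes has reached 96.2% and that of all genes 39.7%; dotted lines mark a 2-fold difference.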

How the data were processed

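RNA was measured by sequencing in 3 samples, of which 2 have a file used here. Per the series design text in the labels, stranded TruSeq mRNA libraries were sequenced paired-end (150 bp, HiSeq 2000) and TopHat 1.3.3 placed the reads on GRCh37. How genes were counted, with which annotation and whether by strand, is not stated there. The authors deposited FPKM, 1 value per gene and library, with zeros kept. Groups follow the sample titles.

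Differences are of log2(FPKM + 1), A375-VR library minus A375 library, over genes that reach an FPKM of 1 in either library. All 53 members passed. With 1 library per group no test was run. Library totals and whole reads were recovered from the FPKM values: the commonest ratio of the libraries gives the ratio of totals, and the common factor was the one of 12 multiples under which most gene lengths equalled GENCODE 44 exon lengths on GRCh37 (15.9% of 3000 genes, 11.2% for the next). The files do not tell single reads from read pairs, and intervals are too narrow if both reads of a pair were counted. Reads are the smallest whole numbers that fit, so intervals can be too wide; lengths of 29 of the 53 genes lay within 2% of the exon length. Steps were tested on simulated data. Exons of 14 members overlap another listed gene, and 11 have a pseudogene named after them. These 11 are ORC1, DBF4, PCNA, RFC3, RFC5, PRIM2, POLD2, RPA2, RPA3, FEN1 and TIPIN. The members and lists were chosen with earlier results of these data known. Named genes were all 53 members and the 5 other replication genes with the largest differences; ASF1A, RNASEH2A and the marker genes given by name were picked after their values were seen. Protein features were not analysed here. Work used Python 3.11.15, pandas 2.3.3, numpy 2.4.6 and scipy 1.17.1.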

Additional observations from a re-analysis of the deposited data

How the results depend on the processing

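Alternatives were a pseudocount of 0.1, no filter, a filter at FPKM 5, centring on the median ratio, a trimmed mean of log ratios and rescaling to a common sum. The direction of every member was kept under all 6, except that GINS4 and POLA2 did not pass the filter at 5. Members at least 2-fold lower numbered 11 after centring and 11 with the trimmed mean, where MCM2 (-1.09 and -1.09), MCM7, CDC45 and POLD1 also passed, 8 with the pseudocount of 0.1 and 5 after rescaling. Centring and the trimmed mean gave medians of -1.07 and -1.07 for the MCM2 to MCM7 ring, -0.62 and -0.62 for MCM8, -0.61 and -0.61 for RPA, -0.63 and -0.64 for nucleotide synthesis and -0.69 and -0.69 for mitotic regulators, of which 1 then passed 2-fold in each. The median over all genes, 0.096, was -0.0018 with the trimmed mean. Over all genes, those at least 2-fold lower numbered 140 with the pseudocount of 0.1, 101 after centring, 103 with the trimmed mean and 104 after rescaling, and those higher 689 with the pseudocount of 0.1 and 624 after rescaling. Centring and the trimmed mean shift genes well above the pseudocount by about the same amount, and a smaller pseudocount widens low values by construction. The common sum used in rescaling was larger than the FPKM sums (260897 in the A375-VR library and 265149 in the A375 library). The pseudocount therefore also weighed less after rescaling, which widens low values in the same way. With only the 250 bases before the start, 25.4% of the member windows held an E2F word, against 2.79% of all. No paired analysis was possible because each group has 1 library, and for the same reason no library could be left out.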
